A study of Mus musculus with 4 samples.

Results

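Cholesterol synthesis and its control by the SREBP factors were described in intestinal stem cells (ISCs) of young and old mice through 30 genes chosen by symbol, of the 52459 genes in the count table. They were enzymes of the mevalonate and isoprenoid steps (8 genes), enzymes of the squalene and sterol steps (11 genes), regulators of SREBP (5 genes), sterol transport proteins (2 genes) and fatty acid enzymes (4 genes). The list holds neither every enzyme of the route nor every SREBP target, so all counts below are of these 30 genes. Wild-type (WT) C57/Bl6 mice, female by the study's methods, were 2 months old (ISC_2mth) or 22 months old (ISC_22mth) and carried no transgene or treatment. Each age had 2 libraries, each from ISCs sorted by surface markers out of a pool of 5 animals, so values are averages over animals and p-values measure the spread between pools. RNA was amplified along the whole transcript and sequenced in full length (FL) libraries.

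Cells make cholesterol from acetyl-CoA through mevalonate, isoprenoid units, squalene and lanosterol, and the isoprenoid steps also feed protein prenylation, dolichol and ubiquinone. The transcription factors SREBP1 and SREBP2, encoded by Srebf1 and Srebf2, are held in the endoplasmic reticulum by SCAP and the INSIG proteins when sterols are plentiful, and travel to the Golgi for cleavage when sterols fall. SREBP2 mainly drives cholesterol synthesis and uptake genes, and SREBP1 mainly drives fatty acid synthesis genes. In the intestine, dividing crypt cells need sterols for new membrane, and villus enterocytes also take up dietary cholesterol.

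None of the members differed between ages at a false discovery rate (FDR) under 0.05, by edgeR's quasi-likelihood test with Benjamini-Hochberg adjustment over all 13692 genes tested. Among all genes tested, 2.26% did, 1.63% higher and 0.628% lower in old ISCs. The 8 mevalonate and isoprenoid genes had a median log2 fold change (22 against 2 months) of 0.32 and the 11 squalene and sterol genes of 0.11, against -0.0049 for all genes tested. The 3 fatty acid genes tested all had values below 0, with a median of -0.30, and the 5 regulators had a median of -0.12. These values are relative to the bulk of genes (TMM normalization). With scaling by total counts, the median of all genes was -0.50, and the mevalonate median turned to -0.17 and the sterol median to -0.38. The fatty acid median was then -0.785 and that of the regulators -0.612. The first 2 medians lay 0.33 and 0.12 above that of all genes, and the other 2 lay 0.289 and 0.116 below it. Such distances were bound to change little, since another scaling shifts all genes by nearly the same amount. Single pools also moved these medians. The mevalonate median was 0.13 without replicate 2 of ISC_22mth, and the sterol median was 0.064 without replicate 1 of ISC_22mth, 0.070 without replicate 1 of ISC_2mth and 0.060 with offsets for GC content and length. The regulators' median turned to 0.039 without replicate 1 of ISC_22mth. It was -0.447 without replicate 2 of ISC_22mth, -0.193 without replicate 2 of ISC_2mth, -0.049 without replicate 1 of ISC_2mth and -0.052 with the offsets. The fatty acid median stayed between -0.40 and -0.248 with a pool left out and was -0.195 with the offsets.

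Across the list, 29 of 30 genes were tested, since in at least 1 pool they exceeded 5 reads and 1 CPM (a count scaled to library size), and Scd1 was not. An unadjusted p under 0.05 was reached by 5 of the 29 genes (17.2%), 2 higher (Hmgcs1, Ggps1) and 3 lower (Srebf2, Fasn, Scd2) in old ISCs. The share of all genes tested at that p was 16.9%, with 9.26% higher and 7.65% lower, so the members' count was near the background. The count depended on the fit, with 1 higher and 1 lower by DESeq2. With total counts, a scaling that called 34% of all genes tested at FDR under 0.05, 0 were higher and 12 lower. The log2 fold change was below 0 in 10 of the 29 genes (34.5%, against 50.5% of all genes tested). It was below 0 in 15 of 29 without replicate 1 of ISC_2mth, in 13 without replicate 2 of either age and in 28 with total counts. Pools of the ages were separate with the old pools higher in 8 of the 29 genes (27.6%, against 24% of all genes tested) and with the old pools lower in 5 (17.2%, against 23.6%). In the other 16 genes the pools of the ages overlapped. The lowest FDR was 0.0704, for Scd2. The 95% intervals below give the size of difference that the data leave possible for each gene.

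**Figure D1:**
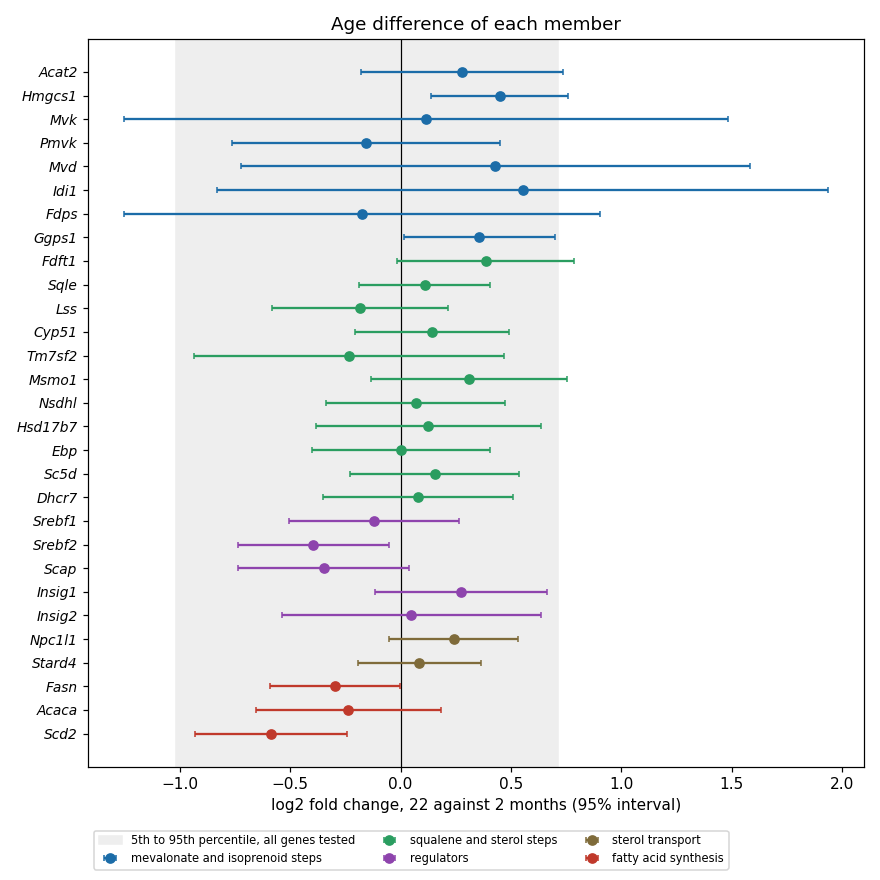
Log2 fold change of each of the 29 members tested (x axis, 22 against 2 months) with its 95% interval from edgeR's quasi-likelihood fit, coloured by role group, with the range of the 5th to 95th percentile of all genes tested in grey. Intervals exclude 0 only for Hmgcs1, Ggps1, Srebf2, Fasn and Scd2, none of which passed FDR 0.05, and are widest for Idi1, Mvk, Mvd and Fdps, which had under 30 counts in every pool.

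**Figure D2:**
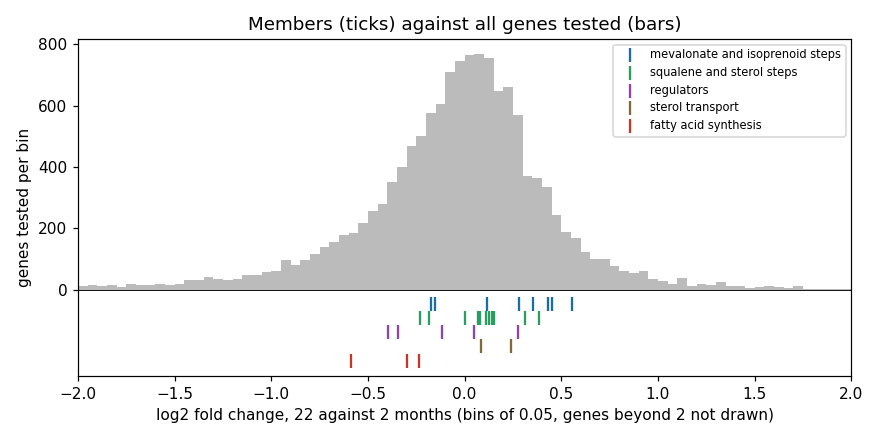
Number of genes tested per bin of log2 fold change (grey bars, bins of 0.05) with the members as ticks below, coloured by role group. All 29 members lie between -0.59 and 0.55, inside the bulk of the distribution.

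Libraries held 11662654 to 15975698 counts on genes. Mitochondrially encoded genes took 62.6% and 65.7% of them in young and 73.8% and 72.9% in old ISCs, and their part in the members' values was not tested. The members together held 6910 and 7565 counts in the young pools and 6476 and 6327 in the old pools. Replicate pools were separate libraries, with a median absolute log2 difference over the members of 0.20 between the young pools and 0.20 between the old pools. Stem cell markers (Lgr5, Ascl2, Olfm4, Smoc2, Sox9, Axin2, Rnf43) were well detected at both ages, 7 of 7 passing the filter, with 23036 to 29955 summed counts per pool. None of the 7 passed FDR 0.05. In 4 both old pools lay below both young pools (57.1%, against 23.6% of all genes tested), and in 1 (Ascl2) above them (14.3%, against 24%). The 7 markers summed to 2067 and 1927 normalized CPM in young and to 1743 and 1937 in old ISCs. Of 5 fibroblast and endothelial markers none passed the filter (at most 7 counts for any in a pool, with Col3a1, Pdgfra and Cdh5 at 0). Of 7 leukocyte markers only Itgam passed, and it was higher in old ISCs (FDR = 0.0296 by edgeR), while Cd79a was at 0. Of 10 enterocyte markers, 3 (Fabp1, Fabp2, Sis) rose in old ISCs with FDR under 0.05 by edgeR's quasi-likelihood test, and 8 had separate pools with the old pools higher (80%, against 24% of all genes tested). Their summed level was 602 and 720 normalized CPM in the young pools and 1169 and 1058 in the old pools. Of 6 Paneth cell markers, 2 (Defa17, Defa24) rose, and the 6 summed to 925 and 715 normalized CPM in the young pools and to 2062 and 800 in the old pools, replicate 1 of ISC_22mth standing apart. Of 5 tuft cell markers Dclk1 rose, from 4 and 4 to 42 and 19 counts, and no goblet (7 markers) or enteroendocrine marker (6 of 7 tested) passed. The part of these cells' RNA in the members' values was not tested, and in bulk RNA fewer cells of a type and less RNA per cell cannot be told apart.

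Promoter sequence is shown for Hmgcs1, Srebf2 and Fasn, drawn from the synthesis, regulator and fatty acid groups. Each had an unadjusted p under 0.05 by edgeR and a promoter entry. Ggps1 met the same rule and is not shown. SREBPs bind sterol regulatory elements (SREs) and usually act together with NF-Y, which binds the CCAAT box. In the lines below the capitals mark an SRE (TCACNCCAC) or a CCAAT box (CCAAT, written ATTGG on the other strand), each line running 5′ to 3′ on the gene's strand and ending upstream of the annotated start. Hmgcs1 is chr13:119690101-119690350 on the plus strand, Srebf2 is chr15:82147019-82147178 on the plus strand and Fasn is chr11:120824548-120824697 on the minus strand, all from RefSeq (GRCm38.p6).
Hmgcs1: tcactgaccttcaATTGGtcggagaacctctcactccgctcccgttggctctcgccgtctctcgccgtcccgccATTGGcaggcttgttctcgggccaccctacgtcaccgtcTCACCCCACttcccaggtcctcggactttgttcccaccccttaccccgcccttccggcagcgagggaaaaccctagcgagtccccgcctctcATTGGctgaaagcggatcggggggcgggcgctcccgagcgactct
Srebf2: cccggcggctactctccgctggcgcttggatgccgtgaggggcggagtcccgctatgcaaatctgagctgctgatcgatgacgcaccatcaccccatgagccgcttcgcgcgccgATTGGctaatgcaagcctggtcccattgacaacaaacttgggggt
Fasn: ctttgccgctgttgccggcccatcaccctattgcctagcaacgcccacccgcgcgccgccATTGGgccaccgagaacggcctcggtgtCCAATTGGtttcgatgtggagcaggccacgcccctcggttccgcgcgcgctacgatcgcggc

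The Hmgcs1 stretch held an SRE from 137 to 129 bases before the start and 3 CCAAT boxes. In Srebf2, the stretch held 1 CCAAT box, and in Fasn 3, of which a pair on opposite strands overlapped. RefSeq windows were found for 24 of the 30 members, and for 9438 of the genes tested. Within 250 bases upstream of any start, on either strand, a CCAAT box occurred in 21 of the 24 members (87.5%) and in 40.7% of the genes tested. The CACGTG E-box occurred in 5 members (20.8%) and in 9.86% of the genes tested, and the SRE letters in 1 member (4.17%) and in 1.29%. The GC box (GGGCGG) occurred in 19 members (79.2%) and in 63% of the genes tested. A match is a stretch of letters and not a measured binding site, and SREs that depart from these letters were not counted. CCAAT boxes stood upstream of genes of all 5 role groups, of Hmgcs1 and Ggps1 as well as of Srebf2, Fasn and Lss.

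**Figure D3:**
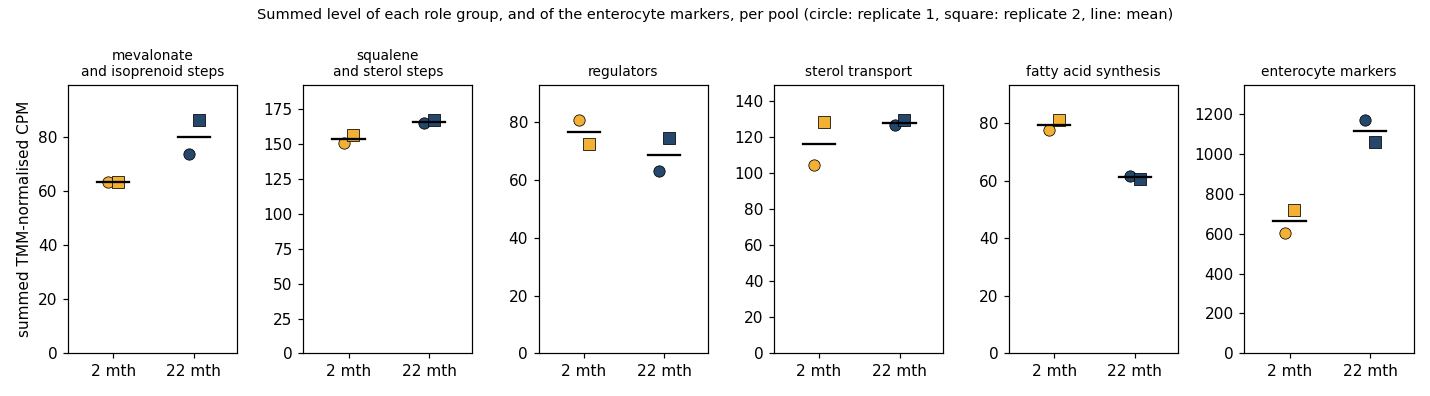
Summed TMM-normalized CPM (y axes from 0) of each role group and of the 10 enterocyte markers in each pool, young in yellow and old in blue, with the mean of each age as a line. The fatty acid sums of both old pools lie below both young pools, and the mevalonate, sterol and enterocyte marker sums of both old pools lie above them.

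Summed over the 8 mevalonate and isoprenoid genes, the level was 63.3 and 63.3 normalized CPM in the young pools and 73.7 and 86.3 in the old pools. The 11 squalene and sterol genes summed to 150.5 and 156.4 in young and to 164.9 and 167.3 in old ISCs. The 4 fatty acid genes summed to 77.8 and 81.1 in young and to 61.8 and 60.6 in old ISCs. For these 3 groups the pools of the ages did not overlap. On CPM of total counts the mevalonate sums overlapped (78.7 and 71.3 against 61.0 and 74.1). The sterol sums were then lower in both old pools (187 and 176 against 136 and 144). The fatty acid sums stayed lower in both old pools (96.7 and 91.4 against 51.1 and 52). Sums of the regulators and of the sterol transport genes, which overlapped after TMM, were on this scale also lower in both old pools. With 2 pools against 2, an exact two-sided permutation test of such a sum cannot give a p below 0.333, so none is given. A sum is led by its most abundant genes, Hmgcs1 and Ggps1 in the first group and Sqle and Cyp51 in the second.

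Hmgcs1, whose upstream stretch held the SRE, encodes the cytosolic HMG-CoA synthase, which makes the substrate of the step that commits carbon to mevalonate. In young ISCs it stood at 27.2 and 25.0 normalized CPM, and in old ISCs at 32.6 and 38.7, from 377 to 472 counts. Each old pool was thus above each young pool. The log2 difference was 0.45 (95% interval 0.14 to 0.76, FDR = 0.123 by edgeR). With total counts it was -0.043, which lay 0.453 above the median of all genes. Hmgcs1 lies on chromosome 13 from 119690379 to 119708260 of GRCm38, and its exons share 557 bp with the antisense gene Gm48342, whose reads cannot be told apart from those of Hmgcs1 unless the counting used strand. Ggps1 encodes geranylgeranyl diphosphate synthase, which makes a lipid that is attached to small GTPases. It stood at 17.6 and 16.7 normalized CPM in young and at 21.0 and 22.9 in old ISCs, a log2 difference of 0.36 (95% interval 0.014 to 0.70, FDR = 0.278 by edgeR), and of -0.137 with total counts. Its old pools were again above its young pools, and its exons share 257 bp with those of Arid4b on the opposite strand.

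Acat2, the cytosolic thiolase that joins 2 acetyl-CoA molecules, had 8.00 and 11.4 normalized CPM in young and 11.1 and 12.5 in old ISCs. Its young pools were farther apart than the means of the ages, and 39.1% of its 50-nt stretches also occur in transcripts of other genes, among them the near copy Acat3, so its count is uncertain. Pmvk, which phosphorylates phosphomevalonate, had 5.45 and 5.04 against 3.78 and 5.65. Mevalonate kinase (Mvk), mevalonate diphosphate decarboxylase (Mvd), the isomerase Idi1 and farnesyl diphosphate synthase (Fdps) were counted between 9 and 28 times per pool. At that depth only large differences could be detected, as their 95% intervals ran from -1.25 to 1.48 for Mvk, from -0.72 to 1.58 for Mvd, from -0.83 to 1.94 for Idi1 and from -1.25 to 0.90 for Fdps. Idi1 shared 25.3% and Fdps 26.2% of their 50-nt stretches with other genes, and how the counting treated such reads is not given in the sources used here.

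**Figure D4:**
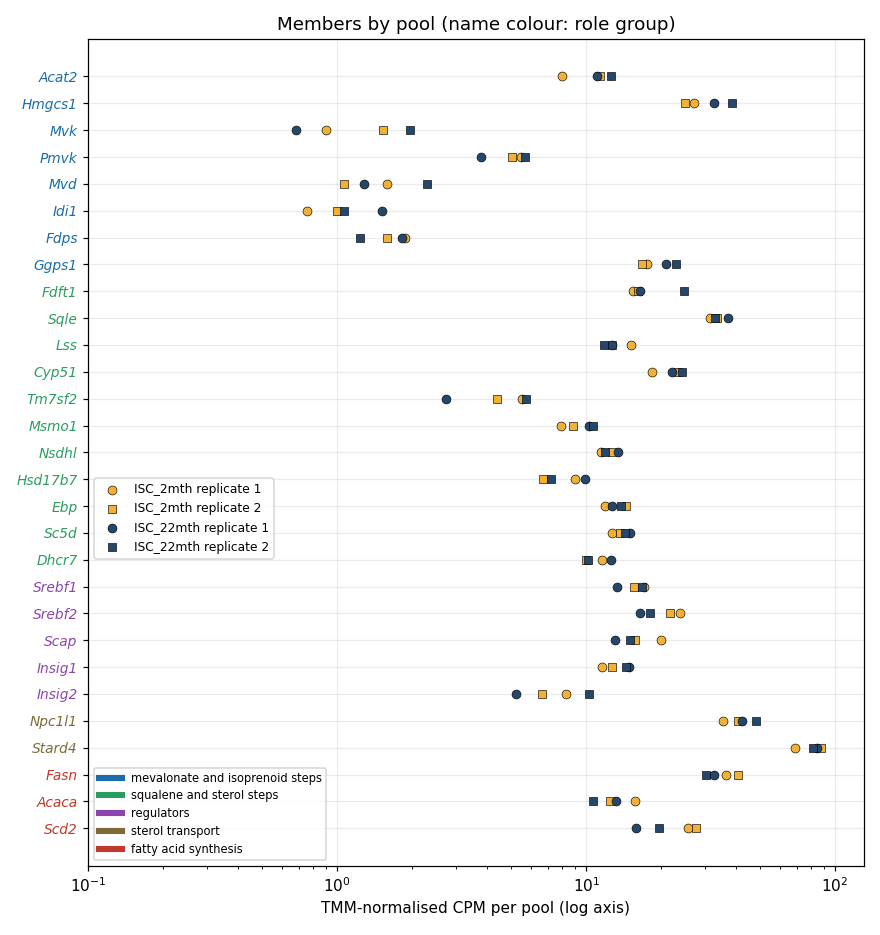
TMM-normalized CPM (log axis) of the 29 members tested in each pool, young in yellow and old in blue, circles for replicate 1 and squares for replicate 2, gene names coloured by role group. Levels span from under 1 CPM for Idi1 and Mvk to over 68 CPM for Stard4, and the pools of the ages are separate for Hmgcs1, Ggps1, Srebf2, Fasn and Scd2 among others.

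From squalene onward, log2 fold changes ran from -0.23 for Tm7sf2 to 0.39 for Fdft1, with 9 of 11 above 0. This count was between 6 and 8 with a pool left out (6 without replicate 1 of ISC_2mth), 7 with offsets for GC content and length and 0 with total counts. Fdft1, squalene synthase, which takes farnesyl diphosphate into the sterol branch, had 15.5 and 16.1 normalized CPM in young and 16.5 and 24.8 in old ISCs. The difference rested on replicate 2 of ISC_22mth, since the log2 difference was 0.39 (95% interval -0.015 to 0.79, FDR = 0.316 by edgeR) with all pools and 0.064 without that pool. Its exons share 774 bp with Ctsb on the opposite strand, and 26.5% of its 50-nt stretches occur in other genes. Sqle, squalene epoxidase, a rate-limiting and oxygen-dependent step, stood at 31.5 and 33.4 in young and at 37.2 and 32.8 in old ISCs, with overlapping pools. Its log2 fold change was 0.11 with a 95% interval from -0.19 to 0.41, and it was 0.018 without replicate 1 and 0.196 without replicate 2 of ISC_22mth. Msmo1, a C4-demethylase, was at 7.93 and 8.88 in young and at 10.2 and 10.7 in old ISCs, with separate pools (log2 difference 0.31, 95% interval -0.13 to 0.75, FDR = 0.484 by edgeR, and -0.178 with total counts). Sc5d, a sterol desaturase, had 12.7 and 13.7 against 15.1 and 14.3. Lss, which closes squalene epoxide into lanosterol, was the sterol enzyme whose old pools lay below both young pools, at 15.1 and 12.66 against 12.64 and 11.8, so that the nearest pools of the ages were almost equal.

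The remaining sterol enzymes overlapped between ages. Cyp51, the lanosterol demethylase, had 18.4 and 23.4 normalized CPM in young and 22.0 and 24.2 in old ISCs. Nsdhl, Hsd17b7, Ebp and Dhcr7, which act between lanosterol and cholesterol, had log2 fold changes of 0.069, 0.13, 0.0033 and 0.080, with 95% intervals that all lay between -0.40 and 0.63. Tm7sf2, a C14 sterol reductase, had 5.52 and 4.37 in young and 2.72 and 5.73 in old ISCs.

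The 5 regulators had values on both sides of 0. Srebf2, which encodes SREBP2, on chromosome 15 from 82147181 to 82205379, had 345 and 327 counts in the young pools and 218 and 221 in the old pools. In normalized CPM these were 23.8 and 21.7 in young and 16.5 and 18.1 in old ISCs, so each old pool was below each young pool. The log2 difference was -0.39 (95% interval -0.74 to -0.052, FDR = 0.224 by edgeR's quasi-likelihood test). It was -0.197 with offsets for GC content and length and -0.888 with total counts (FDR = 0.000883), a scaling that called 34% of all genes tested. Scap, the escort of both SREBPs, stood at 19.9 and 15.8 in young and at 13.1 and 15.0 in old ISCs, a log2 difference of -0.35 (95% interval -0.73 to 0.040, FDR = 0.358 by edgeR), of -0.193 with those offsets and of -0.844 with total counts (FDR = 0.00283). Its exons share 985 bp with the antisense gene 5830462I19Rik. Srebf1 had 17.1 and 15.6 against 13.3 and 16.8, with overlapping pools, and its log2 difference of -0.12 became 0.102 with the offsets. Insig1, itself a sensitive SREBP target that retains SCAP in the endoplasmic reticulum, lay the other way, with 11.6 and 12.7 in young and 14.9 and 14.4 in old ISCs (log2 difference 0.27, 95% interval -0.11 to 0.66, FDR = 0.482 by edgeR, 0.168 with the offsets and -0.216 with total counts). Of the regulators, Insig2 had the widest spread between old pools, 5.22 and 10.2 normalized CPM, around young values of 8.28 and 6.63. These are transcript levels, and the cleavage that activates SREBPs was not measured.

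The 2 sterol transport genes had the highest levels per exon length of the list. Stard4, which carries cholesterol between membranes, had 68.8 and 87.3 normalized CPM in young and 84.5 and 81.2 in old ISCs, with a log2 fold change of 0.085 and a 95% interval from -0.19 to 0.36. This value was -0.075 without replicate 1 of ISC_2mth, 0.261 without replicate 2 of ISC_2mth and 0.014 with offsets for GC content and length. Npc1l1, the apical transporter for dietary cholesterol, had 35.6 and 40.9 in young and 42.2 and 48.2 in old ISCs. For Npc1l1 the pools of the ages were separate (log2 difference 0.24, 95% interval -0.051 to 0.53, FDR = 0.405 by edgeR, and -0.245 with total counts). The difference was 0.143 without replicate 2 of ISC_22mth and 0.147 without replicate 1 of ISC_2mth. The 10 enterocyte markers above had a median log2 fold change of 0.42, and their part in the Npc1l1 value was not tested.

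With all pools, the fatty acid enzymes had the lowest group median of the list. Without replicate 2 of ISC_22mth the regulators' median was lower (-0.447 against -0.248). Scd2, a stearoyl-CoA desaturase that makes monounsaturated fatty acids, had 370 and 416 counts in the young pools and 209 and 239 in the old pools, that is 25.5 and 27.6 against 15.8 and 19.6 normalized CPM. The old pools were both below the young pools, by more than the pools of either age differed. The log2 difference was -0.59 (95% interval -0.93 to -0.24), and the FDR of 0.0704 by edgeR missed the threshold. It passed in 4 of 11 alternative fits, with an FDR from 0.000115 to 0.182 over them. Scd2 lies on chromosome 19 from 44293674 to 44306864. Only 3.97% of its 50-nt stretches occur in other genes, the paralogues Scd1, Scd3 and Scd4 among them. Scd1, the neighbouring paralogue, had 2 and 5 counts in young and 3 and 0 in old ISCs and was not tested, so of this pair ISCs of both ages mainly held Scd2.

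Fasn, fatty acid synthase, had 36.5 and 40.8 normalized CPM in young and 32.5 and 30.4 in old ISCs, with separate pools. Its log2 difference was -0.30 (95% interval -0.59 to -0.001, FDR = 0.294 by edgeR), -0.038 with offsets for GC content and length (FDR = 0.938) and -0.785 with total counts (FDR = 0.000679). Acaca, acetyl-CoA carboxylase, which makes malonyl-CoA for Fasn, had 15.7 and 12.5 in young and 13.2 and 10.7 in old ISCs. These pools overlapped (log2 difference -0.24, 95% interval -0.66 to 0.18), and 30.4% of the 50-nt stretches of Acaca occur in other genes.

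Levels between genes were compared per length, as mean normalized CPM over all pools per kb of exon. The length joined the exons of all annotated transcripts of a gene, such as 17074 bp for Acaca and 4208 bp for Fdps. It can exceed the length of the transcripts present, which lowers the value, so the ranking is approximate. Stard4 (14.4) and Npc1l1 (9.34) were highest, followed by Hmgcs1 (6.72), Sqle (6.08) and Ebp (5.70). At the low end stood Scd1 (0.0356), Idi1 (0.309), Fdps (0.386), Mvk (0.474), Acaca (0.760) and Mvd (0.837). Of these 6 genes, Idi1, Fdps and Acaca shared over 25% of their 50-nt stretches with other genes. The other 2 synthesis genes with over 25% shared, Acat2 (4.22) and Fdft1 (4.31), were higher. Srebf1 and Srebf2 had the same level per length (2.79 and 2.79), and Insig1 (4.33) was above Insig2 (2.19).

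Among 49 further genes around the pathway, 48 were tested, with 0 at FDR under 0.05 and 4 (8.33%, against 16.9% of all genes tested) at an unadjusted p under 0.05 by edgeR's quasi-likelihood test. Of 14 genes of sterol efflux, esterification and the LXR receptors, 11 (78.6%, against 50.5% of all genes tested) had a log2 fold change below 0, with a median of -0.23, and none passed the test. With total counts 14 of 14 were below 0, with a median of -0.725, or 0.229 below that of all genes. Abcg8, which with Abcg5 pumps sterols back into the gut lumen, had 25.3 and 21.7 normalized CPM in young and 17.6 and 16.8 in old ISCs (log2 difference -0.45, standard error 0.16, FDR = 0.167 by edgeR). Nus1, a subunit of the enzyme that builds dolichol precursors, had 52.9 and 44.1 against 62.1 and 63.6 (log2 difference 0.38, standard error 0.13, FDR = 0.155 by edgeR). Mbtps2, the site-2 protease that releases SREBPs, had 14.8 and 15.4 against 20.7 and 18.9 (log2 difference 0.39, standard error 0.17, FDR = 0.25 by edgeR), and 28.9% of its 50-nt stretches occur in other genes, among them Yy2. Malic enzyme Me1, a source of NADPH, had 0 and 14 counts in young and 41 and 15 in old ISCs (log2 difference 2.19, standard error 0.85, FDR = 0.192 by edgeR), its young pools differed widely, and 28.3% of its 50-nt stretches occur in other genes. The medians of the other groups were -0.026 for SREBP processing and sterol sensing (10 genes), -0.017 for fatty acid and NADPH supply (14 tested) and -0.013 for isoprenoid branches (10 genes). With a pool left out these medians ran from -0.127 to 0.082, from -0.076 to 0.069 and from 0.044 to 0.147, so none kept one sign over all fits, and with total counts they were -0.517, -0.508 and -0.497, close to the -0.496 of all genes.

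**Figure D5:**
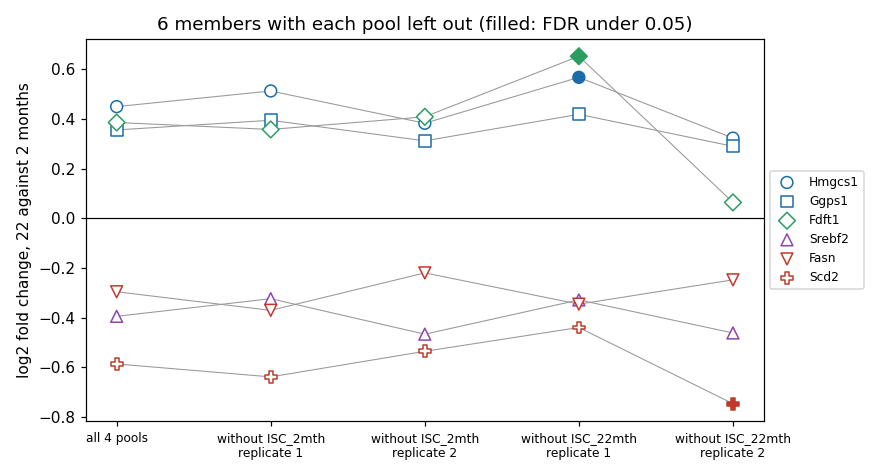
Log2 fold change (y axis) of 6 members with all 4 pools and with each pool left out in turn, filled where the FDR was under 0.05 by edgeR's quasi-likelihood test. All 6 kept their side of 0 in these fits, and Hmgcs1, Fdft1 and Scd2 passed the threshold in 1 fit each.

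With a single pool left out, 3 members passed the threshold, in fits that called more of all genes tested than the 2.26% above. Without replicate 1 of ISC_22mth, the pool with the high Paneth markers, Hmgcs1 had a log2 fold change of 0.57 (FDR = 0.0247 by edgeR) and Fdft1 of 0.65 (FDR = 0.028), that is 2 of 29 members, while 4.73% of all genes tested were called. Without replicate 2 of ISC_22mth, Scd2 had a log2 fold change of -0.75 (FDR = 0.00713), as 1 of 29 members, while 5.05% of all genes tested were called. In such fits 1 age has a single pool, which is taken to vary like the other age. Over the 4 fits, Srebf2 stayed between -0.47 and -0.32, Fasn between -0.37 and -0.22 and Ggps1 between 0.29 and 0.42. Scap moved between -0.513 and -0.167 and Acaca between -0.40 and -0.062. With 1 pool or another left out, the sign changed in 13 of the 29 members (Mvk, Pmvk, Mvd, Fdps, Cyp51, Tm7sf2, Nsdhl, Hsd17b7, Ebp, Dhcr7, Srebf1, Insig2 and Stard4) and was kept in the other 16.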

How the data were processed

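The authors trimmed the reads (Trimmomatic 0.30), aligned them with STAR 2.4.2a to GRCm38 and counted them over exons of GENCODE vM15 genes with featureCounts, and deposited raw counts per gene for each pool, per the labels and the paper's Methods. The strand setting and how multi-mapping reads were treated are not given in the sources used here. From these counts, TMM-normalized CPM and tests came from edgeR 4.0.16 (R 4.3.3, glmQLFit and glmQLFTest, no covariate, Benjamini-Hochberg over the 13692 genes exceeding 5 reads and 1 CPM in some pool, FDR 0.05). Standard errors came from the log2 fold change and the F value. Alternatives used limma 3.58.1, DESeq2 1.42.0, other scalings and filters, a replicate block, offsets for GC content and exon length (lowess span 0.3, 3 iterations) and each pool left out. The fits were tested on simulated counts. Positions, exon lengths, overlaps and shared 50-nt stretches came from GENCODE vM21 (GRCm38), matched by symbol for all 30 members. Members and lists were chosen with earlier results of these data known. Named by rule were members with an unadjusted p under 0.05, the regulators, in each group the genes of highest and lowest level and widest change, and related genes with an unadjusted p under 0.05, and the remaining members follow for completeness. Promoter windows, motif letters and the genes whose promoters are shown were chosen after the counts were seen. A floor of 3 counts was between 0.199 and 0.246 normalized CPM, and such limits cover counting error only.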

Additional observations from a re-analysis of the deposited data

How the results depend on the processing

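The count of genes of all kinds with FDR under 0.05, 309, was 197 with DESeq2, 611 with edgeR's likelihood ratio test, 554 with no filter, 172 with offsets for GC content and length, 623 with the replicate block and 4650 with total counts, where 96 were higher and 4554 lower in old ISCs (223 and 86 after TMM). The count of members lower in old ISCs, 0 by the quasi-likelihood test, was 1 (Scd2) with the likelihood ratio test (FDR = 0.0304), with no filter (FDR = 0.0323) and with the replicate block (FDR = 0.0233), fits that called 4.46%, 2.24% and 4.55% of all genes tested. It was 8 of 29 with total counts, where 34% of all genes tested were called, the members' median was -0.4, that of all genes -0.496 and Stard4 turned to -0.4 (FDR = 0.0339). Limma voom with sample quality weights (FDR = 0.0643 for Scd2) and the other alternatives called no member. The cause of these shifts was not tested. With a pool left out, genes called ranged from 147 to 691, members lower in old ISCs from 0 to 1, members higher from 0 to 2 and the members' median from -0.00316 to 0.146. Replicate numbers named different animals, and the deviations of equal numbers did not go together (Pearson r of -0.00588 across 13692 genes, which are not independent replicates), so the block fit is an alternative and changed no other call on a member. Genes with under 30 counts per pool (Mvk, Mvd, Idi1, Fdps, Scd1) were limited by depth.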
